A study of Homo sapiens with 12 samples.

Results

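The genes of cholesterol and fatty acid synthesis that sterol regulatory element-binding proteins (SREBPs) control were examined in THP1 cells, a human leukemia line with monocyte character. The list was set by name, with earlier results of these data known, and held 34 of the 58735 genes in the count table. Of these, 18 were enzymes of sterol synthesis, 7 belonged to sterol uptake and SREBP regulation, and 9 to fatty acid synthesis. THP1 cells were cultured for 24 h in transwell inserts with 1 µm pores at 400000 cells per well, and were then exposed to LPS at 100 ng/ml for 2 h before RNA was taken, so no library represents unstimulated cells. In 3 of the 4 groups, human umbilical vein endothelial cells (ECs) lay below the insert at 500000 per well. These ECs had received DMSO (control ECs), the DNA-damaging drug etoposide to make them senescent (senECs), or etoposide and after it epigallocatechin gallate, a green tea polyphenol (EGCG-treated senECs). The fourth group, the mono-culture, was kept in the same endothelial medium with no ECs. Each group had 3 libraries, numbered 1, 2 and 3 in the mono-culture and control EC groups and 1, 2 and 5 in both senEC groups. All libraries came from 1 cell line, and the labels do not say that a group's libraries came from separate cultures, so the p-values measure the spread between these libraries, which may be technical.

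SREBPs are transcription factors held in the endoplasmic reticulum by SCAP and the INSIG proteins while sterols are plentiful. When sterols run low, SCAP carries SREBPs to the Golgi, where they are cut, and the released fragment enters the nucleus and turns on genes for making and importing lipid. SREBF2 encodes the form that mainly drives cholesterol synthesis and SREBF1 the forms that lean toward fatty acids. In monocytes and macrophages the cholesterol synthesis side of the pathway is known to be set against the oxysterol-sensing LXR receptors, which drive sterol export.

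Promoter sequence was taken from RefSeq (GRCh38.p14), which held promoters for 30 of the 34 members, from 250 bases before each annotated start to 50 bases after it. ACAT2, FASN, FDFT1 and SQLE were the members with no entry. A sterol response element of the form TCACNCCAC was searched on both strands, and SREBF2 was the member that held it. This was 2.33% of the members' 43 promoters, against 1.13% of all 35116. CCAAT, the box bound by NF-Y, a usual partner of SREBPs, stood in 60.5% of member promoters and in 34.6% of all, and the GC box GGGCGG in 88.4% and 45% respectively. The E-box CACGTG stood in 11.6% of member promoters and in 7.26% of all. Several promoters of 1 gene can overlap, the motifs were counted without regard to overlap with each other, and a match says only that the letters are there. A missing match does not show that a gene lacks a sterol response element, since 1 form was searched in a short stretch. Within the sterol synthesis genes 75% of promoters held CCAAT, against 46.7% for the fatty acid genes. The promoters of 6 members are given here up to the outermost start annotated in GENCODE 29. SREBF2, INSIG1 and MSMO1 were taken for their motifs, though other members also held CCAAT. STARD4, HMGCS1 and SCD were taken because the expression results turn on them, a choice made after their values were seen. All 6 are also among the members with the smallest p in their role group, so the choice does not stand apart from the expression results. Capitals mark CCAAT or its reverse complement ATTGG and, in SREBF2 alone, the sterol response element.

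SREBF2: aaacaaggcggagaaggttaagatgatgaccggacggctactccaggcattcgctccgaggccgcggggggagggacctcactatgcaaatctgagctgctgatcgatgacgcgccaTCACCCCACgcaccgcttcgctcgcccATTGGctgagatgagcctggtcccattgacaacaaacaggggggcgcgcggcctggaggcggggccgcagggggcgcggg
INSIG1: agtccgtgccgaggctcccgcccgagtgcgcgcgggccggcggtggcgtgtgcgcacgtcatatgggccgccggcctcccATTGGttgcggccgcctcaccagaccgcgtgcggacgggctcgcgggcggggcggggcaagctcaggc
STARD4: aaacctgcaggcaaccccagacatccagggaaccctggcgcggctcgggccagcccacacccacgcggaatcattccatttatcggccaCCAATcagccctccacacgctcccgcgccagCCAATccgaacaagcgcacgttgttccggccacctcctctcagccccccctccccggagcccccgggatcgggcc
HMGCS1: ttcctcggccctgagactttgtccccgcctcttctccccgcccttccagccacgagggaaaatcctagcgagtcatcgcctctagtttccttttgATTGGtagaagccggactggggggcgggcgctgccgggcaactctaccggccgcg
MSMO1: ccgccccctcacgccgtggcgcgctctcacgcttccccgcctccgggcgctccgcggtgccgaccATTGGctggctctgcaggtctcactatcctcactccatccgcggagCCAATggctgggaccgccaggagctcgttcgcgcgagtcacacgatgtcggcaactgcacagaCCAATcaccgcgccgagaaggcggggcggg
SCD: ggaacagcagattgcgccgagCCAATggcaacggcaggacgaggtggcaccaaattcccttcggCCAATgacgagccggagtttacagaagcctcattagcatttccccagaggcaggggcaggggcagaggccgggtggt

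The SREBF2 stretch is chr22:41832855-41833078 (plus strand) in GRCh38.p14, that of INSIG1 is chr7:155297628-155297775 (plus strand), and that of STARD4 is chr5:111512591-111512785 (minus strand). HMGCS1 is shown for chr5:43313513-43313662 (minus strand), MSMO1 for chr4:165327419-165327622 (plus strand) and SCD for chr10:100346983-100347123 (plus strand). All lie directly upstream of the genes' annotated starts. Each is written 5′ to 3′ on the gene's strand. MSMO1, a C4-methylsterol oxidase of the sterol pathway, held 3 of these boxes in the stretch shown, STARD4 and SCD 2 each, and SREBF2, INSIG1 and HMGCS1 1 each.

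The libraries held 15439836 to 22092600 counts assigned to genes. A count of 3 was worth 0.136 to 0.194 CPM (counts scaled to a library of 1000000) depending on the library. Of 12 monocyte markers, CD68 stood at 2 to 16 counts, CD14 at 95 to 1087 and each of the others at 420 or more. Of 12 endothelial markers, the defining cadherin CDH5 had 0 or 1 count and MMRN1 had none in any library. The endothelial markers summed to 21.8 to 27.9 CPM in mono-culture, which held no ECs, and to 25.3 to 34.8 CPM with ECs, and EGFL7 at 287 to 503 counts made up most of that sum. The 7 LPS response markers summed to 1811 to 2432 CPM in the libraries numbered 1 and 2 and to 3432 to 4307 CPM in those numbered 3 or 5, of which each group held 1. The library of senEC replicate 5 stood apart: among 14397 genes of at least 1 CPM, 22.2% had their highest level in it and 16.3% their lowest. It also held the highest sums of the endothelial, monocyte and LPS markers. The medians and the named members' fold changes with senECs are therefore given with and without it.

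All 34 members had enough counts to be tested, that is, a total of at least 10 over the 12 libraries. Levels of different genes are compared per length, as CPM per kilobase of exon (FPKM), taken as the mean of the 12 libraries. FASN, the fatty acid synthase, was the most abundant member at 81.5 FPKM, followed by ACLY, which makes cytosolic acetyl-CoA from citrate, at 79.1 FPKM. SQLE, the squalene epoxidase, stood at 50.8 FPKM and FDFT1, the squalene synthase, at 47.0 FPKM. SREBF2 came next at 36.2 FPKM, while SREBF1 stood at 8.05 FPKM. In all, 17 members were above 10 FPKM and 16 lay between 1 and 10 FPKM. ELOVL6, a fatty acid elongase, was the exception at 0.0490 FPKM, with 1 to 24 counts per library, and nothing can be read from its differences at this depth. CYP51A1, the lanosterol demethylase, was the next lowest in counts, with 25 to 125 per library. Because these are bulk libraries, a lower level can mean fewer cells carrying the RNA or less RNA per cell, and these cannot be told apart.

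Taken as a share of all counts, the members together made up 0.314% to 0.364% of a library in mono-culture and 0.314% to 0.394% with control ECs. The shares were 0.261% to 0.323% with senECs and 0.298% to 0.352% with EGCG-treated senECs. The ranges of the groups overlap, and the library of senEC replicate 5 was the lowest. The 18 sterol synthesis genes alone made up 0.105% to 0.122% of counts in mono-culture, 0.101% to 0.117% with control ECs, 0.0888% to 0.103% with senECs and 0.0916% to 0.107% with EGCG-treated senECs. The mean level was lowest with senECs for 20 of the 34 members, or 58.8%. Among all genes of at least 1 CPM that group was lowest for 23.8%. By role, senECs gave the lowest mean for 12 of 18 sterol synthesis genes, 4 of 7 uptake and regulation genes and 4 of 9 fatty acid genes. The highest mean fell in mono-culture for 10 of the 18 sterol genes and with control ECs for 7 of the 9 fatty acid genes.

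**Figure D1:**
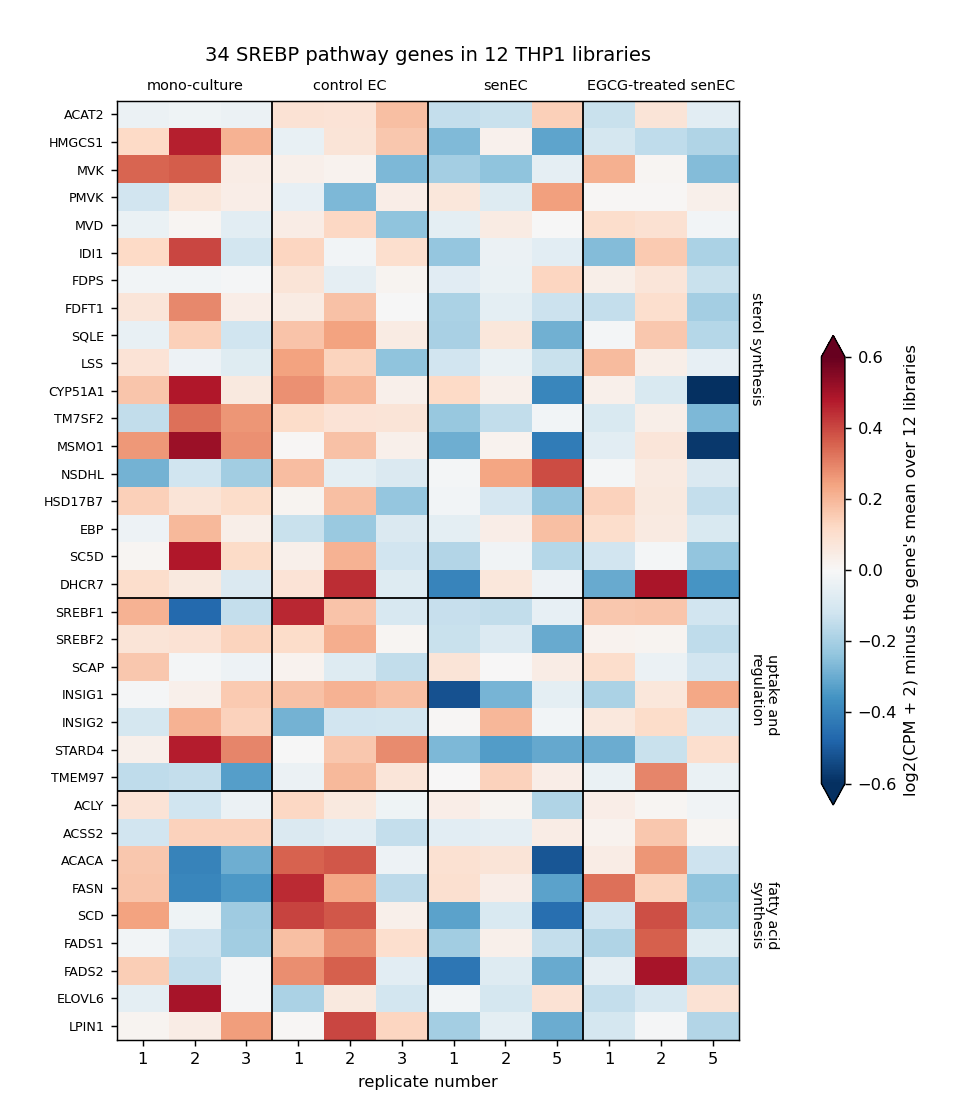
Colour shows log2(CPM + 2) of each of the 34 members (rows, by role) in each of the 12 libraries (columns, by group and replicate number) minus the gene's mean over all 12, with the scale ending at 0.6 in both directions. Blue cells are frequent in the senEC columns among sterol synthesis and fatty acid genes, while STARD4 is blue in all 3 senEC libraries and red or near 0 in all 6 libraries of the mono-culture and control EC groups.

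The comparison of senECs with control ECs addresses whether senescence of the neighbouring endothelium bears on the lipid synthesis genes of the monocytic cells. INSIG1, STARD4, SREBF2, SCD and FADS2 were lower in every senEC library than in every control EC library, at 0.673 (SCD) to 0.818 (SREBF2) of the control EC level in the fit. None of these differences held after correction in the reported fit, which has the group as the single term. No member passed the test in edgeR's quasi-likelihood fit after Benjamini-Hochberg adjustment over 25873 genes, and neither did any other gene, so the background was 0%. DESeq2 also called 0 genes. With the replicate number as a block in edgeR, 153 of the 25873 genes were called, 4 of them members. The senEC and control EC groups share only the numbers 1 and 2. At an unadjusted p under 0.05, edgeR listed 9 of the 34 members with lower levels, or 26.5%, against 3.75% of all genes tested. It listed 0 members with higher levels, against 2.86% of all genes. The median log2 fold change of the members was -0.20, against -0.01 for all genes tested and 0.03 for genes of at least 1 CPM. Estimates lay below 0 for 26 of the 34 members, or 76.5%, and for 44.2% of genes of at least 1 CPM. In 10 members every senEC library lay below every control EC library, or 29.4%, where the background was 5.66%. In 2 members every senEC library lay above, where the background was 5.31%. Without senEC replicate 5, 7 members were lower at an unadjusted p under 0.05 and the median was -0.17. Because the list was chosen with earlier results of these data known, these shares describe the members and are not a test.

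**Figure D2:**
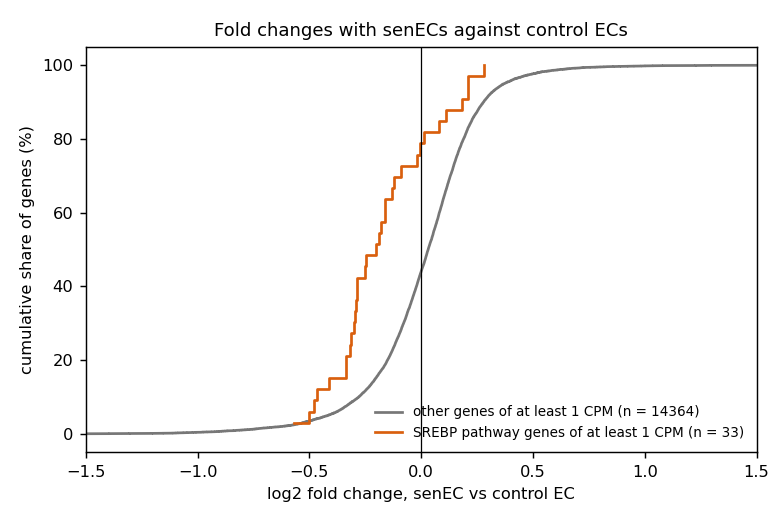
Cumulative share of genes (vertical axis, percent) by log2 fold change of senECs against control ECs (horizontal axis) for the 33 members of at least 1 CPM (orange) and for 14364 other genes of at least 1 CPM (grey). The orange line lies left of the grey line over most of the range: 78.8% of these members lie below 0, against 44.1% of the other genes.

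Among the uptake and regulation genes the median log2 fold change with senECs against control ECs was -0.29. It was -0.23 without senEC replicate 5 and -0.16 without control EC replicate 1. INSIG1, the sterol-sensing anchor that keeps SREBPs in the endoplasmic reticulum and is itself an SREBP target, was at 80.3, 82.3 and 80.6 CPM with control ECs. It was at 48.7, 58.1 and 67.9 CPM with senECs, at 70.4, 72.5 and 79.2 CPM in mono-culture, and at 61.8, 74.5 and 83.7 CPM with EGCG-treated senECs. Every senEC library lay below every control EC and mono-culture library, and the EGCG-treated group overlapped all the others. The log2 fold change of INSIG1 was -0.48 ± 0.12 (SE) against control ECs, with an adjusted p of 0.728 in edgeR. Without senEC replicate 5, the highest of the 3 senEC libraries, its log2 fold change was -0.60. Without senEC replicate 1, the lowest of them, it was -0.36.

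STARD4, which carries cholesterol between membranes and is induced when sterols are low, lies at chr5:111496033-111512590 on the minus strand (GENCODE 29, GRCh38). It was at 86.2, 82.5 and 83.9 CPM with senECs, at 104, 117 and 128 CPM with control ECs, at 107, 146 and 128 CPM in mono-culture, and at 84.7, 95.2 and 112 CPM with EGCG-treated senECs. The 3 senEC libraries lay close together and below every mono-culture and control EC library, and they overlapped the EGCG-treated group. Against control ECs the log2 fold change of STARD4 was -0.46 ± 0.12 (SE), adjusted p 0.728 in edgeR. It was -0.46 without senEC replicate 5 and -0.39 without control EC replicate 3. STARD4 has an annotated antisense gene, STARD4-AS1, at 34 to 123 counts beside 1389 to 2704 for STARD4. Whether the counting used strand is not given in the sources used here, so reads of the pair cannot be told apart. The same holds for SREBF2, beside whose 3651 to 7235 counts SREBF2-AS1 had 56 to 117.

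SREBF2 was at 248, 257 and 221 CPM with senECs and at 295, 318 and 274 CPM with control ECs. In mono-culture it was at 287, 290 and 299 CPM, and with EGCG-treated senECs at 276, 276 and 245 CPM. The senEC libraries lay below those of control ECs and mono-culture, and again overlapped those with EGCG-treated senECs. The log2 fold change of SREBF2 with senECs against control ECs was -0.29 ± 0.10 (SE), adjusted p 0.728 in edgeR, and -0.23 without senEC replicate 5. SREBF1 averaged 58.9 ± 2.39 CPM with senECs and 73.2 ± 14.2 CPM with control ECs (SD, n = 3 each), and their libraries overlapped. SCAP, the escort protein, averaged 121 ± 3.21 CPM with senECs and 112 ± 6.80 CPM with control ECs. INSIG2, the paralog of INSIG1, averaged 10.7 ± 1.07 CPM and 8.84 ± 0.717 CPM in the same order, and TMEM97, a sterol-regulated receptor of the endoplasmic reticulum, 30.9 ± 1.63 CPM and 31.3 ± 2.71 CPM. INSIG1 and INSIG2 thus had estimates on opposite sides of 0, and the difference between them was not tested.

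**Figure D3:**
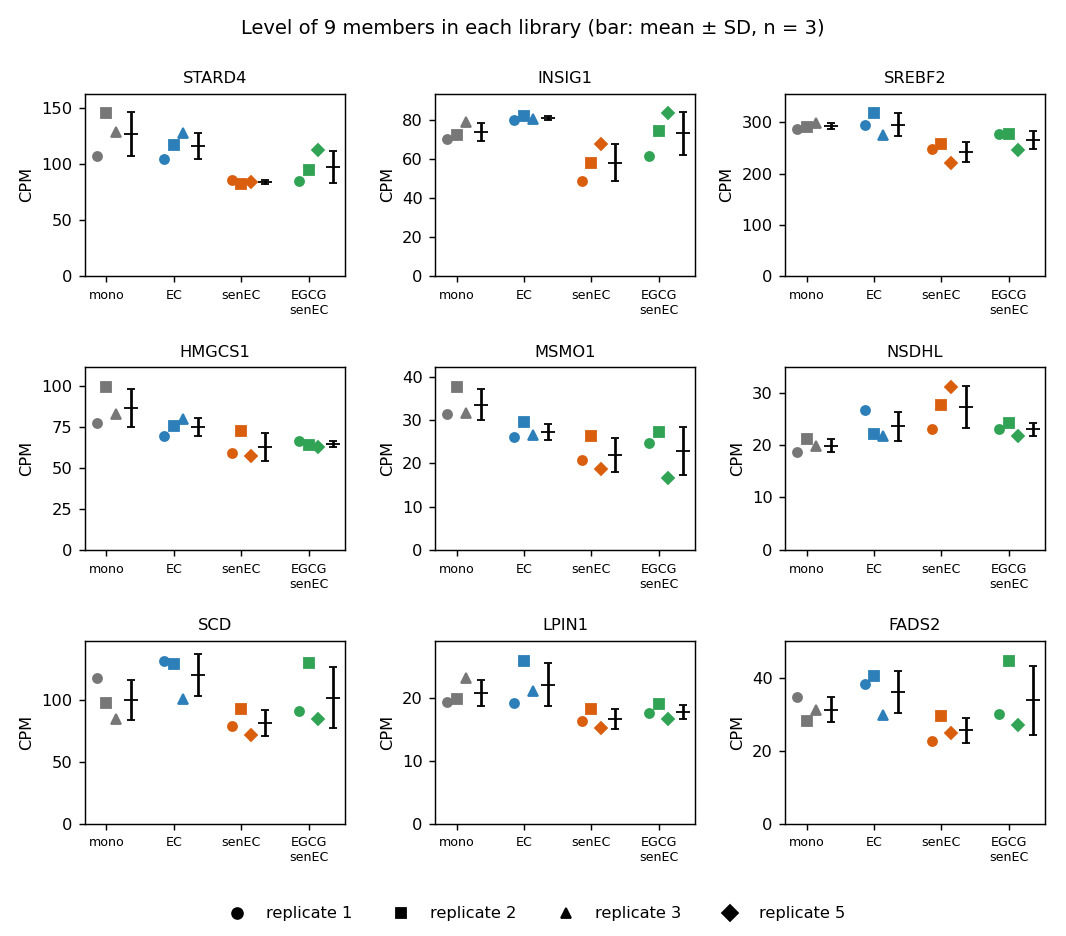
Level in CPM (vertical axes, each starting at 0) of the 9 members with the smallest p in their role group, in each library of the mono-culture, control EC, senEC and EGCG-treated senEC groups. Marker shape gives the replicate number and the black bar the mean ± SD (n = 3). STARD4 lies between 82.5 and 86.2 CPM in the 3 senEC libraries and at 104 CPM or more in all 6 mono-culture and control EC libraries.

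The fatty acid genes had a median log2 fold change of -0.30 with senECs against control ECs, and 4 of the 9 were lower at an unadjusted p under 0.05. The median depended on senEC replicate 5, since it was -0.16 when that library was left out. SCD, the stearoyl-CoA desaturase that makes oleate, was at 78.9, 92.9 and 71.9 CPM with senECs and at 132, 129 and 101 CPM with control ECs. It was at 118, 97.4 and 85.1 CPM in mono-culture, and at 91.4, 130 and 84.5 CPM with EGCG-treated senECs. Each senEC library lay below each control EC library, whereas mono-culture lay between and overlapped both. The log2 fold change of SCD was -0.57 ± 0.16 (SE) with senECs against control ECs, adjusted p 0.728 in edgeR, and -0.49 without senEC replicate 5. FADS2, the delta-6 desaturase of polyunsaturated fatty acid synthesis, was at 22.6, 29.4 and 24.9 CPM with senECs and at 38.3, 40.6 and 29.7 CPM with control ECs. It was at 34.8, 28.1 and 31.1 CPM in mono-culture, and at 30.0, 44.7 and 27.0 CPM with EGCG-treated senECs. The highest senEC library and the lowest control EC library of FADS2 were nearly level. The log2 fold change of FADS2 was -0.50 ± 0.17 (SE) and that of its neighbour FADS1, the delta-5 desaturase, was -0.30 ± 0.12 (SE), both with an adjusted p of 0.728 in edgeR. Leaving out senEC replicate 5 gave -0.48 for FADS2 and -0.28 for FADS1. FADS2 was at -0.41 without control EC replicate 2, and FADS1 at -0.25 without senEC replicate 1. In GENCODE 29, FADS1 (chr11:61799625-61829318, minus strand) lies within the span of FADS2 (chr11:61792980-61867354, plus strand), so without strand their reads cannot be fully told apart.

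LPIN1, a phosphatidate phosphatase of triglyceride synthesis, was at 16.3, 18.2 and 15.1 CPM with senECs and at 19.2, 25.8 and 21.1 CPM with control ECs. It was at 19.3, 19.8 and 23.0 CPM in mono-culture, and at 17.5, 18.9 and 16.7 CPM with EGCG-treated senECs. Both senEC groups lay below the control EC and mono-culture libraries of LPIN1. Its log2 fold change with senECs against control ECs was -0.41 ± 0.14 (SE), adjusted p 0.728 in edgeR, and -0.35 without senEC replicate 5. Without control EC replicate 2, the library with its highest level, it was -0.28. The first steps of fatty acid synthesis varied widely between libraries of a group: ACACA, the acetyl-CoA carboxylase, averaged 138 ± 31.1 CPM with senECs and 175 ± 26.7 CPM with control ECs, and FASN 725 ± 108 and 860 ± 177 CPM (SD, n = 3 each). ACLY averaged 402 ± 32.9 and 428 ± 22.7 CPM, and ACSS2, which makes acetyl-CoA from acetate, 25.2 ± 1.15 and 23.8 ± 0.752 CPM. For these 4 genes the difference did not reach an unadjusted p under 0.05.

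The sterol synthesis genes had a median log2 fold change of -0.17 with senECs against control ECs, and 2 of the 18, SQLE and HMGCS1, were lower at an unadjusted p under 0.05. The median was again -0.17 without senEC replicate 5. SQLE averaged 198 ± 26.1 CPM with senECs and 242 ± 16.3 CPM with control ECs (SD, n = 3 each), a log2 fold change of -0.29 ± 0.12 (SE) with an adjusted p of 0.728 in edgeR, and -0.22 without senEC replicate 5. HMGCS1, the synthase that makes hydroxymethylglutaryl-CoA, was at 59.1, 72.6 and 56.9 CPM with senECs and at 69.1, 75.3 and 80.0 CPM with control ECs. It was at 77.5, 99.3 and 82.6 CPM in mono-culture, and at 66.2, 64.0 and 62.7 CPM with EGCG-treated senECs. The senEC and control EC libraries of HMGCS1 overlapped, and every senEC and EGCG-treated library lay below every mono-culture library. MSMO1 was at 20.7, 26.3 and 18.8 CPM with senECs, at 26.0, 29.5 and 26.5 CPM with control ECs, at 31.3, 37.7 and 31.7 CPM in mono-culture, and at 24.6, 27.3 and 16.7 CPM with EGCG-treated senECs. All 9 co-culture libraries of MSMO1 lay below the 3 of mono-culture. NSDHL, a dehydrogenase of the demethylation steps, ran the other way, with 23.0, 27.7 and 31.1 CPM with senECs and 18.7, 21.2 and 19.8 CPM in mono-culture. It was at 26.7, 22.2 and 21.7 CPM with control ECs and at 23.0, 24.1 and 21.7 CPM with EGCG-treated senECs.

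Of the other 14 sterol synthesis genes besides MSMO1 and NSDHL, none reached an unadjusted p under 0.05 in edgeR with senECs against control ECs. FDPS, the farnesyl diphosphate synthase, averaged 99.9 ± 7.73 and 100.2 ± 4.63 CPM, and MVD, which forms isopentenyl diphosphate, 45.8 ± 1.78 and 45.4 ± 6.13 CPM (SD, n = 3 each). FDFT1 averaged 223 ± 10.1 CPM with senECs and 256 ± 16.3 CPM with control ECs. PMVK and EBP had estimates above 0 in this comparison, with 33.0 ± 3.94 CPM against 29.1 ± 3.34 CPM for the former, a kinase of the mevalonate pathway, and 42.9 ± 3.76 CPM against 37.1 ± 1.86 CPM for the latter, a sterol isomerase. MVK, the mevalonate kinase, averaged 8.76 ± 0.744 and 9.52 ± 1.31 CPM, IDI1, the isopentenyl diphosphate isomerase, 37.1 ± 2.86 and 42.3 ± 2.36 CPM, and ACAT2, an acetyl-CoA acetyltransferase, 41.9 ± 5.08 and 46.9 ± 1.86 CPM. LSS, the lanosterol synthase, averaged 43.6 ± 1.57 and 48.8 ± 8.54 CPM. The later enzymes CYP51A1, TM7SF2, HSD17B7, SC5D and DHCR7, which turn lanosterol into cholesterol, ranged in mean level from 3.99 CPM for CYP51A1 to 39.5 CPM for DHCR7 with senECs and from 5.05 CPM for CYP51A1 to 48.1 CPM for DHCR7 with control ECs. SCD, FDPS, HSD17B7 and CYP51A1 have pseudogene copies in the table. Those looked up, SCDP1, FDPSP3, HSD17B7P2 and CYP51A1P1, had at most 45 counts in a library, and how reads that match both were counted is not given in the sources used here.

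**Figure D4:**
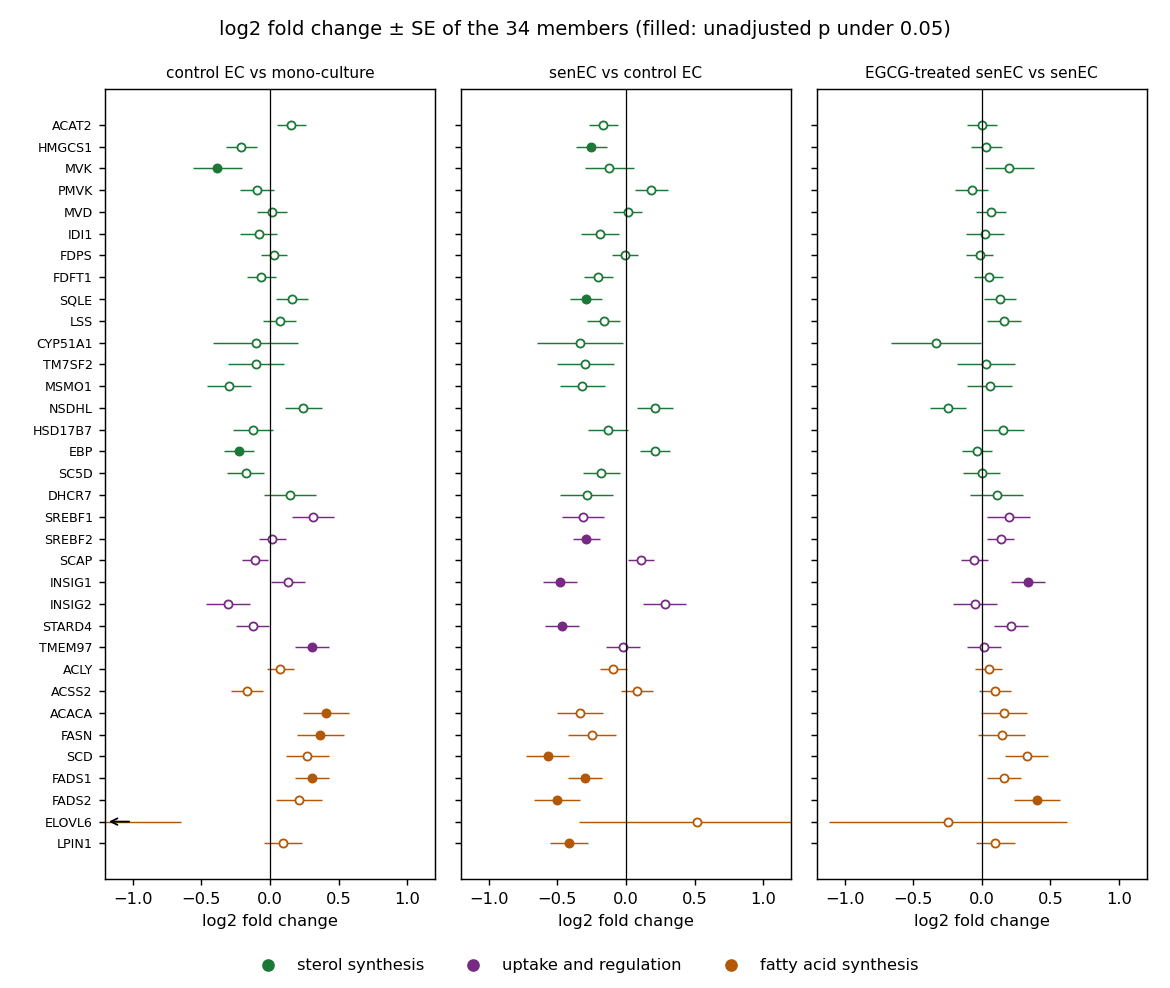
log2 fold change ± SE (horizontal axes) of the 34 members (rows, coloured by role) for control ECs against mono-culture, senECs against control ECs and EGCG-treated senECs against senECs. Filled points have an unadjusted p under 0.05, an arrow marks an estimate beyond the axis, and error bars of ELOVL6 run past it. In the middle panel 26 of 34 points lie left of 0 and all 9 filled points are among them.

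EGCG-treated senECs were compared with untreated senECs to ask whether the treatment of the endothelium changed the state of the monocytic cells. No member passed the test, nor did any gene (background 0%), by edgeR or by DESeq2. At an unadjusted p under 0.05, 2 members were higher, INSIG1 and FADS2, against 1.24% of all genes tested, and 0 were lower, against 0.982%. The log2 fold change of INSIG1 was 0.33 ± 0.12 (SE) and that of FADS2 was 0.40 ± 0.17 (SE), both with an adjusted p of 1 in edgeR. In neither gene did the groups separate: FADS2 was at 27.0 to 44.7 CPM with EGCG-treated senECs and at 22.6 to 29.4 CPM with untreated senECs. Without senEC replicate 5 the log2 fold changes were 0.46 for INSIG1 and 0.38 for FADS2. That of INSIG1 was 0.22 without senEC replicate 1, its lowest library. Without replicate 2 of the EGCG-treated group, the library with its highest FADS2 level, the log2 fold change of FADS2 was 0.15. The median of the 34 members was 0.06, with 26 estimates above 0 and 8 below, against a median of 0.00 for all genes tested. Estimates above 0 made up 76.5% of the members and 47.6% of genes of at least 1 CPM. By role the medians were 0.03 for sterol synthesis, 0.14 for uptake and regulation and 0.14 for fatty acid synthesis, and without senEC replicate 5 they were 0.05, 0.07 and 0.13 in the same order. The members' median ran from 0.0079 without replicate 2 of the EGCG-treated group to 0.12 without senEC replicate 2, and was 0.05 without senEC replicate 5. Without replicate 2 of the EGCG-treated group the sterol median was -0.06 and the fatty acid median 0.05. This comparison and that of senECs with control ECs share the senEC libraries, so their fold changes are not independent.

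Compared with control ECs, EGCG-treated senECs gave no called member and no called gene (background 0%) by edgeR or DESeq2. At an unadjusted p under 0.05, edgeR listed 1 member, LPIN1, as lower, against 2.83% of all genes, and 0 as higher, against 1.72%. The log2 fold change of LPIN1 was -0.32 ± 0.14 (SE), adjusted p 0.979, and it was -0.18 without control EC replicate 2, the library with its highest level. Estimates lay below 0 for 25 of the 34 members, or 73.5%, and for 44% of genes of at least 1 CPM. The median of the members was -0.13, against 0.00 for all genes tested and 0.03 for genes of at least 1 CPM. With 1 library left out it ran from -0.17 (replicate 2 of the EGCG-treated group) to -0.05 (replicate 5 of that group).

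The mono-culture served as the reference without ECs. Against it, senECs gave the single member that passed the test in the whole set of comparisons: STARD4 fell by 0.59 on the log2 scale, to 0.663 of the mono-culture level (SE 0.12, adjusted p 0.0433 in edgeR). This was 1 of 34 members, where 0.309% of all genes tested, or 80, were called. The 3 senEC libraries were at 82.5 to 86.2 CPM and the 3 of mono-culture at 107 to 146 CPM. The call is close to the threshold. Over the 17 alternatives with no replicate term the log2 fold change of STARD4 stayed between -0.70 and -0.48 and its adjusted p between 0.000134 and 0.266. The call was lost when mono-culture replicate 2, its highest library, was left out (adjusted p 0.266), and without senEC replicate 5 (log2 fold change -0.59, adjusted p 0.165). It was also lost when replicate 2 of any of the co-culture groups or mono-culture replicate 3 was left out (adjusted p 0.0618 to 0.182), and with only the 6 libraries compared (adjusted p 0.0979).

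At an unadjusted p under 0.05, 9 members were lower with senECs than in mono-culture, or 26.5%, against 5.24% of all genes, and 2 were higher, NSDHL and TMEM97, against 5.76%. Without senEC replicate 5, 8 members were lower at that level. Among genes of at least 1 CPM, 7.13% were lower and 9.22% higher at an unadjusted p under 0.05 in the reported fit. In 10 members every senEC library lay below every mono-culture library, where the background was 8.5%, and in 2 every library lay above, where it was 8.18%. Among genes of at least 1 CPM these backgrounds were 9.48% and 12.2%. After STARD4 the smallest p belonged to HMGCS1, with a log2 fold change of -0.46 ± 0.12 (SE) and an adjusted p of 0.109 in edgeR. MSMO1 had -0.62 ± 0.16 (SE) and an adjusted p of 0.135. DESeq2 called both, with adjusted p of 0.0155 for HMGCS1 and 0.0265 for MSMO1. NSDHL, at 0.45 ± 0.13 (SE), had an adjusted p of 0.193 in edgeR. Leaving out senEC replicate 5 gave -0.39 for HMGCS1 (adjusted p 0.449), -0.52 for MSMO1 (adjusted p 0.560) and 0.35 for NSDHL (adjusted p 0.735) in edgeR. MVK had a log2 fold change of -0.51 ± 0.18 (SE), SC5D, a sterol desaturase, -0.36 ± 0.13, INSIG1 -0.35 ± 0.12 and SREBF2 -0.27 ± 0.10, with adjusted p from 0.296 to 0.334 in edgeR. In the same order these 4 were -0.58, -0.33, -0.47 and -0.21 without senEC replicate 5. SC5D was -0.20 without mono-culture replicate 2, and INSIG1 was -0.23 without senEC replicate 1. The median was -0.14 for all members, -0.20 for sterol synthesis, -0.03 for uptake and regulation and -0.09 for fatty acid synthesis, against -0.02 for all genes tested. Without senEC replicate 5 the median of the members was -0.16, and without senEC replicate 2 it was -0.24. By role the medians without senEC replicate 5 were -0.19, -0.04 and -0.13 in the order above. Mono-culture replicate 2 also moved them, to -0.13, -0.16 and -0.04 when it was left out, and the fatty acid median was -0.17 without mono-culture replicate 1.

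With control ECs against mono-culture, 37 genes (0.143% of those tested) were called and no member was among them. At an unadjusted p under 0.05, 4 members were higher, against 3.17% of all genes, and 2 lower, against 3.35%. The 4 were TMEM97, FADS1, ACACA and FASN, with log2 fold changes of 0.31 ± 0.12, 0.31 ± 0.12, 0.41 ± 0.17 and 0.37 ± 0.17 (SE). FASN was at 0.22 without control EC replicate 1 and at 0.57 without mono-culture replicate 1. Of the 4, 3 are fatty acid genes, and the median of the fatty acid genes was 0.21, with 0.12 when control EC replicate 2 was left out and 0.33 when control EC replicate 3 was. The 2 lower members were the sterol genes MVK, at -0.38 ± 0.18, and EBP, at -0.23 ± 0.11 (SE), and the median of the sterol genes was -0.09. The adjusted p of these 6 members lay between 0.716 and 0.767 in edgeR. The control EC and mono-culture libraries overlapped for ACACA and FASN: FASN was at 1025, 882 and 673 CPM with control ECs and at 841, 572 and 589 CPM in mono-culture. The median of all 34 members was 0.02, and ran from -0.04 to 0.05 with 1 library left out. Without mono-culture replicate 2, the library with the highest level of 12 of the 34 members, the median of the sterol genes was 0.02.

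With EGCG-treated senECs against mono-culture, 55 genes (0.213%) were called and again no member. Here 5 members were lower at an unadjusted p under 0.05, against 4.53% of all genes, and 1 higher, TMEM97, against 4.05%. HMGCS1 had a log2 fold change of -0.43 ± 0.12 (SE), with an adjusted p of 0.180 in edgeR and of 0.0473 in DESeq2. MSMO1 had -0.56 ± 0.16 and an adjusted p of 0.242, and STARD4 -0.38 ± 0.12 and 0.325 in edgeR. The others were SC5D at -0.36 ± 0.13 and CYP51A1 at -0.77 ± 0.32, the latter on 25 to 125 counts, and TMEM97 stood at 0.30 ± 0.12 (SE). Without EGCG-treated senEC replicate 5 the estimates were -0.39 for CYP51A1 and -0.37 for MSMO1. SC5D was at -0.20 without mono-culture replicate 2, and TMEM97 at 0.18 without EGCG-treated senEC replicate 2. The count of 5 was 2 without mono-culture replicate 2, 3 without EGCG-treated senEC replicate 5, and 8 without mono-culture replicate 3 or EGCG-treated senEC replicate 2. The members' median was -0.02, with -0.07 for sterol synthesis, -0.06 for uptake and regulation and 0.03 for fatty acid synthesis. Without EGCG-treated senEC replicate 2 the members' median was -0.11, and by role the medians were then -0.22 for sterol synthesis and -0.05 for fatty acid synthesis. Without EGCG-treated senEC replicate 5 they were -0.0036 for sterol synthesis and 0.15 for fatty acid synthesis, and that of uptake and regulation was -0.0065. The comparisons with mono-culture share its 3 libraries, so the estimates below 0 of HMGCS1 and MSMO1 in both senEC groups rest on the same controls.

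Other genes of lipid metabolism were counted for comparison. Of 9 genes of the non-sterol branches of the mevalonate pathway, 14 of SREBP processing and sterol traffic, 8 of the LXR response and sterol efflux, and 21 of other fatty acid and triglyceride synthesis, none was called in edgeR in any of the 6 comparisons. With senECs against control ECs, 2 of these 52 genes reached an unadjusted p under 0.05, both higher and both in the last list. The medians of the 4 lists in that comparison were 0.00, 0.01, -0.11 and 0.07 in the order given, beside -0.20 for the 34 members. FADS3, a desaturase-like gene beside FADS1 and FADS2, had a log2 fold change of 0.40 ± 0.17 (SE), adjusted p 0.728. Its level averaged 7.79 CPM in mono-culture, 9.62 CPM with control ECs, 12.7 CPM with senECs and 10.3 CPM in the EGCG-treated group. ABCA1, the cholesterol efflux pump, was at 106, 89.7 and 114 CPM in mono-culture and at 142, 177 and 215 CPM with control ECs. Its log2 fold change between these groups was 0.79 ± 0.24 (SE), adjusted p 0.398 in edgeR. In the senEC group it was at 99.1, 168 and 164 CPM, and in the EGCG-treated group at 95.3, 167 and 239 CPM. Replicate 1 was the lowest library for ABCA1 in all 3 co-culture groups. The related efflux gene, ABCG1, had 4 to 37 counts per library.

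Markers of cell type and LPS response stand beside these results. CD14 rose with senECs against mono-culture, by 2.09 ± 0.42 (SE) on the log2 scale with an adjusted p of 0.0363 in edgeR, and was the single marker called. CD14 was also above mono-culture in every library of the other co-cultures. Its log2 fold change there was 1.07 ± 0.42 with control ECs and 1.62 ± 0.42 (SE) with EGCG-treated senECs, neither called. With senECs CD14 was at 16.6, 32.3 and 65.7 CPM, the last in senEC replicate 5, and overlapped control ECs at 12.4, 18.0 and 26.2 CPM. The summed level of the 12 monocyte markers was 1158 to 1378 CPM in mono-culture, 1139 to 1450 CPM with control ECs, 1212 to 1631 CPM with senECs and 1199 to 1487 CPM in the EGCG-treated group. Of the 12 monocyte markers, 2 were higher at an unadjusted p under 0.05 with senECs against control ECs and 0 lower, with a median log2 fold change of 0.18. The 7 LPS markers had a median of 0.22 in that comparison and 0 reached an unadjusted p under 0.05. Of the 9 endothelial markers tested, ROBO4, at 0 to 7 counts, was the single gene at that level. The part of these markers in the results was not tested.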

How the data were processed

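RNA of THP1 cells was sequenced from 12 libraries in 4 groups of 3, grouped by the treatment labels. The authors deposited a table of whole-number counts per gene symbol, with no normalization. The submitters' processing notes name HISAT2 and hg38, and the counting program, annotation and strand setting are not given in the sources used here. The table has 4 further value columns that match no labelled sample, and these were not used. No gene-free rows entered the library sizes. Replicate libraries differed by more than sampling noise (chi-square per degree of freedom 9.23 to 33.7), so each counted as 1 sample.

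Genes whose counts over the 12 libraries summed to 10 or more were tested with edgeR 4.0.16 (R 4.3.3), using TMM factors (0.912 to 1.04), a quasi-likelihood fit of all 12 libraries with the group as the single term, and Benjamini-Hochberg adjustment over all 25873 genes tested. A gene was called at an adjusted p under 0.05 with no minimum fold. CPM were computed with TMM library sizes, and FPKM from CPM and exon lengths of GENCODE 29. A count of 3 was taken as the floor, which covers counting error only. The SE came from the quasi-likelihood fit and the SD from the 3 libraries of a group, so both include the spread between libraries. DESeq2 1.42.0, DESeq2 size factors, other filters, the 6 libraries of a comparison alone, the replicate number as a block and leaving out each library were tried as alternatives. The method was tested on simulated data with a fixed spread and no variation shared by replicate number. That test does not show how the fit performs on these libraries.

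Values per library are given for called members and for the 3 members of each role with the smallest p, fold changes for members with an unadjusted p under 0.05, at most 8 per comparison, and neighbouring genes only where called or for up to 2 per list. The members, lists and motifs were chosen with earlier results of these data known. The antisense genes, the pseudogenes and ROBO4 were looked up after the values were seen. Promoters came from RefSeq (GRCh38.p14).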

Additional observations from a re-analysis of the deposited data

How the results depend on the processing

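None of the 31 gene results recomputed reversed direction under any alternative. These were members with an unadjusted p under 0.05 in the reported fit, so a reversal was unlikely from the start. Fold changes of markers and neighbouring genes were not recomputed. Of 558 fold changes recomputed for 31 gene results, 527 stayed on the same side of the threshold, 24 passed it where the reported fit did not and 7 no longer passed it. The count of called members was 0 with control ECs against mono-culture and became 1 (ACACA) when all genes with a count were tested. With senECs against mono-culture it was 1, and became 3 with DESeq2, 3 with all genes with a count, and 0 with only the 6 libraries compared. With EGCG-treated senECs against mono-culture it was 0, and became 1 with DESeq2 and 2 with all genes with a count. With senECs against control ECs it was 0, and became 3 with all genes with a count (INSIG1, STARD4 and SCD), a setting under which 14 members were lower at an unadjusted p under 0.05. The cause of these shifts was not tested.

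The replicate numbers were checked as a possible pairing over 14397 genes. The correlations of same-numbered deviations ran from 0.457 to 0.577 for number 1, and were 0.416 for number 3 and 0.344 for number 5. For number 2 they ran from 0.0319 to 0.336. Mono-culture replicate 2 did not correlate best with its own number in the control EC and senEC groups. In the remaining pairs the own number gave the best correlation, in the direction checked. Same-numbered libraries thus shared variation, least evenly for number 2, and the labels do not say what the numbers stand for. The reported fit leaves this shared variation in the spread, and the block is given as an alternative. Number 3 occurs only in the mono-culture and control EC groups, and number 5 only in the senEC groups. Under the block, the senEC groups are thus set against control ECs and mono-culture within numbers 1 and 2 only. With the replicate block, 2 members were called with control ECs against mono-culture, 5 with senECs against mono-culture, 3 with EGCG-treated senECs against mono-culture and 4 with senECs against control ECs (INSIG1, STARD4, SCD and FADS2). Under the block, 8 members with EGCG-treated senECs against mono-culture and 14 with senECs against control ECs were lower at an unadjusted p under 0.05.

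Leaving out single libraries gave 0 to 1 called members for senECs against mono-culture, and 2 to 8 members lower at an unadjusted p under 0.05 for EGCG-treated senECs against mono-culture. For senECs against control ECs that count was 5 when control EC replicate 2 was left out and 12 when replicate 3 of the same group was. The members' median log2 fold change then ran from -0.24 to -0.091 for senECs against mono-culture. For EGCG-treated senECs it ran from -0.11 to 0.0071 against mono-culture and from -0.17 to -0.052 against control ECs. Where a left-out library leaves 2 in a group, the fit pools the spread of all groups.

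Over all genes, 37 were called with control ECs against mono-culture, and 120 with DESeq2, 223 with all genes with a count, 469 with the replicate block and 11 to 44 with a library left out. With senECs against mono-culture 80 were called, and 347, 588, 709 and 19 to 255 in the same order, and 20 with only the 6 libraries compared. With EGCG-treated senECs against mono-culture 55 were called, and 230, 377, 424 and 12 to 100, with 36 when at least 10 counts were asked of every library and 35 with only the 6 libraries compared. Between co-cultures 0 genes were called, and with all genes with a count 114, 14 and 43 for senECs against control ECs, EGCG-treated against untreated senECs and EGCG-treated senECs against control ECs, or 153, 13 and 34 with the replicate block. Depth limits ELOVL6, at 1 to 24 counts, and CYP51A1, at 25 to 125.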
